A study of Mus musculus with 8 samples.

Results

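mmu-miR-31 and mmu-miR-184, called miR-31 and miR-184 here, are microRNAs (miRNAs), short RNAs that guide repression of the messenger RNAs they pair with. They were chosen by name as the miRNAs that the study followed up from its mammary gland arrays, miR-31 for terminal end buds (TEBs) and miR-184 for mature ducts, and they are 2 of the 611 mouse miRNAs on the array. The study selected them on signals of these same arrays, mainly on the difference between TEBs and ducts, so the values of miR-31 in TEBs and of miR-184 in ducts are given as a description, with no test.

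The tissues came from mammary glands of 5-week-old female mice carrying a beta actin-GFP reporter (strain FVB/n in the study's methods), with no other treatment. Under a fluorescence microscope 3 samples of TEBs, 2 of mature ducts and 3 of distal stroma were cut out, and RNA from each sample was hybridised to 1 single-colour Agilent mouse miRNA array. Every tissue therefore carried the same reporter, and micro-dissected pieces hold several cell types. The sources do not say whether the replicates of a tissue were separate mice or pools, so p-values measure the spread between these samples only, which may be technical.

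TEBs are the club-shaped, proliferating tips that drive the ductal tree through the fat pad at puberty, and mature ducts are the tubes they leave behind. A mature miRNA is cut from a hairpin, and its target choice rests mainly on the seed, bases 2 to 8 from the 5′ end. miR-31 is known for roles in epithelial and breast cancer cells, and miR-184 is best known from the lens and cornea of the eye.

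The mature sequences of both hairpins are shown because the array carries both strands of miR-31 but a single strand of miR-184. Its names give no arm and were read in the older usage, miR-31 as 5p, miR-31* as 3p and miR-184 as 3p. Sequences are from RefSeq (build GRCm38.p6), 5′ to 3′, with the seed in capitals.
miR-31 (5p), chr4:88910614-88910635, minus strand: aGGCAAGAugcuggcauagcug
miR-31* (3p), chr4:88910577-88910599, minus strand: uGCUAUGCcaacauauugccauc
miR-184 (3p), chr9:89802263-89802284, minus strand: uGGACGGAgaacugauaagggu
miR-184-5p, chr9:89802302-89802323, minus strand: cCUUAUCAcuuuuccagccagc
In the 1679 mouse mature sequences searched, 0 others shared the seed of miR-31 and 0 that of miR-184, so neither had a seed family there. In the same annotation Mir31 lies on chromosome 4 within the long non-coding RNA gene Gm49890, between the protein-coding genes Ifne and Mtap. Mir184 lies on chromosome 9 between Ankrd34c and Rasgrf1 and overlaps no annotated gene.

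mmu-miR-31 was detected on each of the 3 TEB arrays, and neither ducts nor stroma gave a detected signal. Values are the total gene signal, the background-subtracted brightness summed over the probes of a miRNA, in arbitrary intensity units before any scaling. Each is set against the error that the scanner software gives for it, and "detected" is the flag of that software. In TEBs the miR-31 signal was 15.2, 19.2 and 11.02 units on replicates 1 to 3, at software errors of 3.90, 4.86 and 5.15 units. In ducts it was -13.4 and -1.61 units, at errors of 10.4 and 6.16 units. In stroma it was -19.3, -22.3 and -12.4 units, at errors of 6.25, 7.004 and 4.69 units. All TEB signals lay above 0 and all others below it, so that TEBs overlapped neither of the other tissues. Without scaling, every TEB array also lay above every duct array for 279 of the 413 miRNAs undetected in both tissues. Likewise every TEB array lay above every stroma array for 116 of the 418 miRNAs undetected in TEBs and stroma.

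The TEB signals of miR-31 were weak. They stood 3.89, 3.94 and 2.14 software errors above 0, so TEB replicate 3 carried the thinnest evidence of detection. On that array the flag was given to some miRNA at 4.80 units and withheld from another at 20.4 units, so the flag was no plain threshold on the signal. In ducts the signal of miR-31 stood at -1.29 and -0.262 errors, and in stroma at -3.18 to -2.64 errors.

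**Figure D1:**
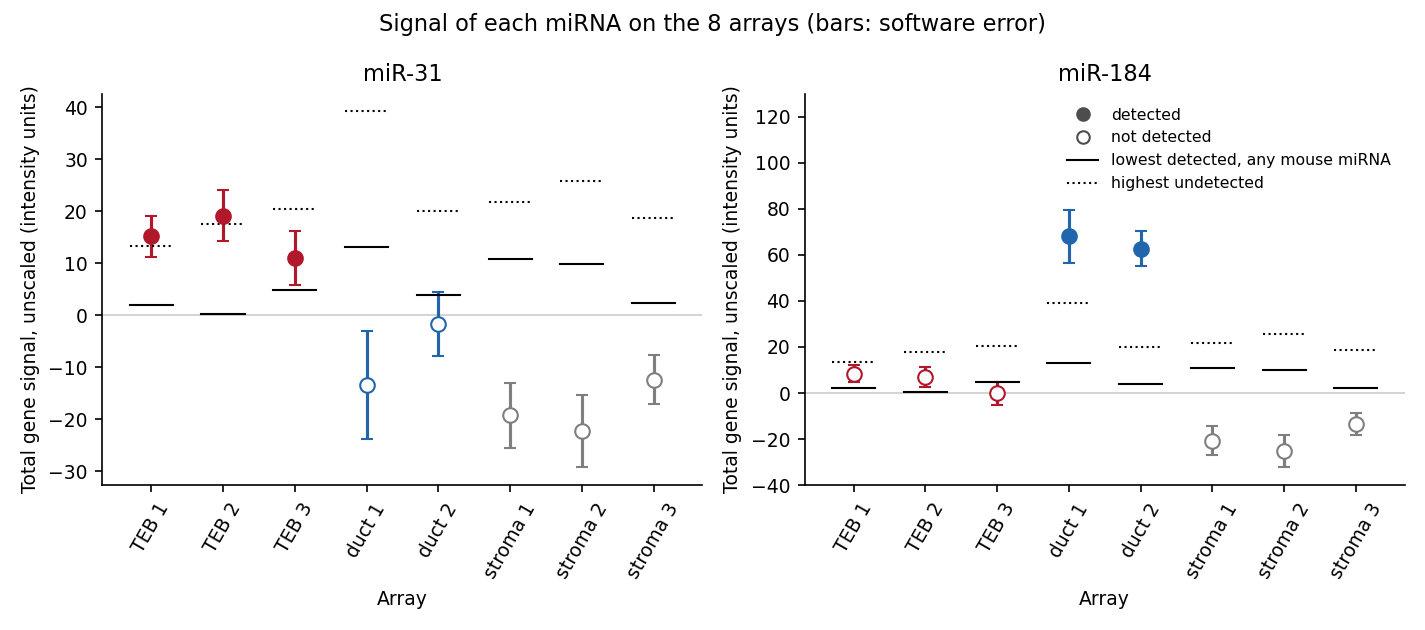
Unscaled total gene signal of miR-31 (left) and miR-184 (right) on each of the 8 arrays, in intensity units, with the scanner software's error as bars. Filled points are detected and open points are not, and the short lines mark the lowest detected and the highest undetected mouse miRNA of each array. miR-31 is filled on the 3 TEB arrays, at 11.02 to 19.2 units, and miR-184 on the 2 duct arrays, at 62.7 and 67.9 units.

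After scaling, in which the 108 miRNAs detected everywhere were brought to a common 75th percentile, the mean of miR-31 was 15.0 ± 3.32 units in TEBs (SD, n = 3), -5.67 ± 6.19 in ducts (SD, n = 2) and -21.1 ± 5.10 in stroma (SD, n = 3). Differences were also taken array against array on the scaled signals, with the errors scaled alike. The 6 differences of TEB and duct arrays, which share 3 TEB and 2 duct arrays, were 1.75 to 3.12 times their combined error. The 9 differences between TEB and stroma arrays, which reuse the TEB arrays, were 3.39 to 4.80 errors. Stroma itself stood at -3.18 to -2.64 of its own errors, so these multiples also count how far it lay below 0. Of the 167 miRNAs tested with limma (adjusted p under 0.05), 24.6% differed between TEBs and ducts and 64.7% between TEBs and stroma. Those shares are the background to the contrasts of miR-31 and nothing is read from them, since the contrasts chose it.

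A signal at or below background has no fold change, only a lower limit. With each duct array held at its lowest detected mouse miRNA, miR-31 was at least 2.68-fold higher in TEBs than in ducts. The limit was at least 1.68-fold in slide row 1 and at least 3.77-fold in slide row 2. Of these tissues, row 1 held TEB replicates 1 and 2 with duct replicate 1, and row 2 held TEB replicate 3 with duct replicate 2. The lowest detected miRNA stood at 9.89 scaled units on duct replicate 1 and at 3.05 on duct replicate 2. The limit over both rows fell to at least 1.49-fold without duct replicate 2 and rose to at least 4.16-fold without duct replicate 1. Against stroma, miR-31 was at least 1.97-fold higher in TEBs, with at least 1.51-fold and 1.88-fold in the slide rows and at least 1.29-fold without stroma replicate 3. With the dim arrays held at their highest undetected miRNA, a stricter limit added after the data were seen, no fold above 1 was left for miR-31 in either comparison.

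mmu-miR-184 was flagged as detected in ducts alone, on both replicates. In ducts its signal was 67.9 and 62.7 units, at errors of 11.4 and 7.60 units. In TEBs it was 8.45, 6.93 and -0.211 units on replicates 1 to 3, at errors of 3.65, 4.50 and 5.01 units. In stroma it was -20.6, -25.3 and -13.4 units, at errors of 6.25, 7.004 and 4.69 units. The duct arrays lay far above the rest, the TEB arrays came next around or just above 0, and every stroma array was below 0.

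The duct signals of miR-184 were 5.94 and 8.25 software errors above 0. In TEBs the signal reached 2.32 errors on replicate 1 and 1.54 on replicate 2 without being flagged, and it was -0.0422 errors on replicate 3. After scaling, the mean was 50.6 ± 0.453 units in ducts (SD, n = 2), 4.95 ± 4.58 in TEBs (SD, n = 3) and -23.2 ± 6.32 in stroma (SD, n = 3). The small SD in ducts is that of 2 arrays, at 50.9 and 50.3 scaled units, and was under the software error of either. Between scaled arrays, the 6 differences of TEBs and ducts were -6.29 to -4.55 combined errors (TEB minus duct). The 6 of ducts and stroma, which share the duct arrays, were 6.47 to 8.08 errors. In stroma the miR-184 signal stood at -3.61 to -2.86 errors, so the latter multiples also count how far stroma lay below 0.

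With the dim arrays set in the same way, the ratio of miR-184 in ducts over TEBs was 7.74. It was 6.82 in slide row 1 and 10.0 in slide row 2. On TEB replicates 1 and 2, the TEB arrays of row 1, the undetected miR-184 signal lay above the lowest detected miRNA and entered as measured. The row 1 ratio is thus one of measured signals and the 7.74 is so in part, and neither is a lower limit. Over stroma miR-184 was at least 6.79-fold higher in ducts, at least 4.63-fold and 8.20-fold in the slide rows, and at least 4.43-fold without stroma replicate 3. Under the stricter limit, the highest undetected miRNA of each dim array, the duct signal of miR-184 was still at least 3.003-fold above TEBs and at least 1.95-fold above stroma. In contrast to miR-31, a fold above 1 was thus left for miR-184 in both of its comparisons.

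**Figure D2:**
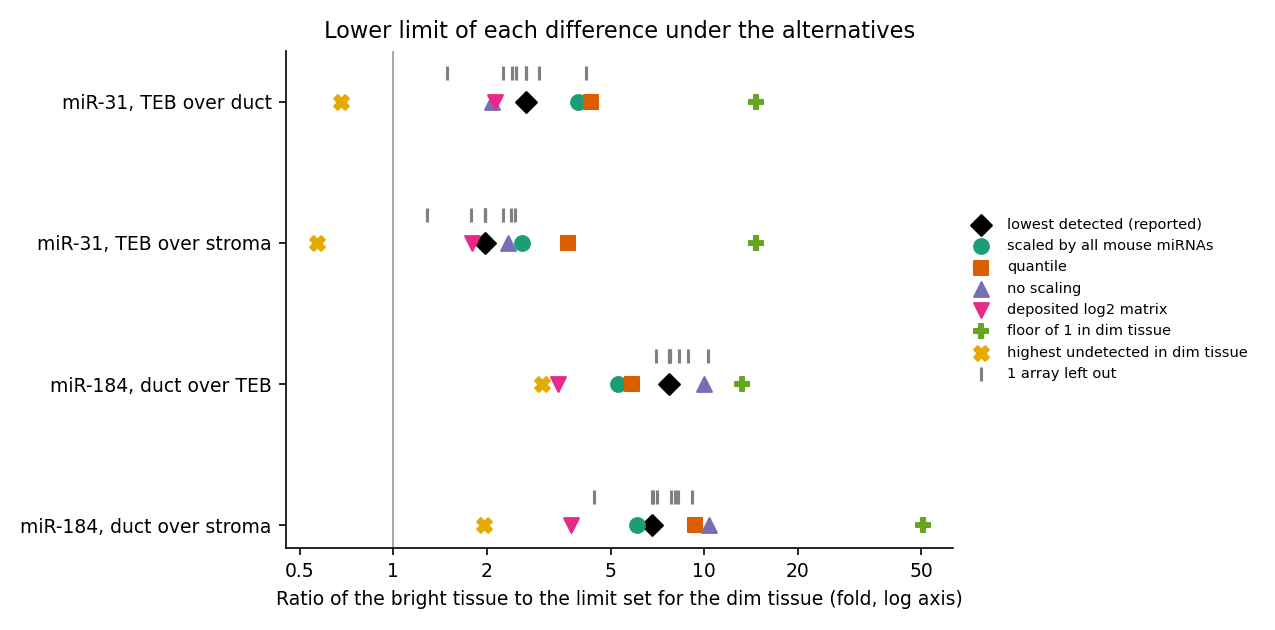
Lower limit of the fold difference of miR-31 and miR-184 between the tissue where each was detected and each other tissue, on a log axis, under each way of setting the dim tissue or scaling the arrays (symbols) and with 1 array left out (grey ticks). Only the 2 miR-31 limits set at the highest undetected miRNA fall left of 1, whereas the miR-184 limits set in that way are 3.003 and 1.95. The reported miR-184 ratio of ducts over TEBs uses measured signals on TEB replicates 1 and 2 and is no strict lower limit.

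Each miRNA leaves a comparison of tissues in which it was not the detected miRNA: TEBs against stroma for miR-184, and ducts against stroma for miR-31. Signals and detection flags of all 8 arrays entered the choice of the miRNAs, so these comparisons too are given as a description, with no test. All signals in them were undetected, so they describe positions around the background.

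The miR-184 signal was higher in TEBs than in stroma by 28.2 scaled units, with every TEB array above every stroma array and differences of 28.6 and 24.1 units within the slide rows. Among the 418 miRNAs undetected on every TEB and stroma array, the difference of TEBs and stroma had a median of 7.10 units and quartiles of 1.48 and 11.9 units, and 54.1% of them had all TEB arrays above all stroma arrays. The absence of overlap was thus shared by 226 of the 418 undetected miRNAs, or by 116 of them without scaling, whereas the size of the miR-184 difference was exceeded by 1 of them, miR-721, at 31.4 units.

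The miR-31 signal was higher in ducts than in stroma by 15.4 scaled units, or by 9.63 and 20.5 units within the slide rows. Without scaling these tissues overlapped, since duct replicate 1 at -13.4 units lay below stroma replicate 3 at -12.4 units, and the difference was 10.5 units. Among the 426 miRNAs undetected on every duct and stroma array the difference had a median of 0.739 units and quartiles of -0.802 and 2.43 units, and 1.41% had both duct arrays above all stroma arrays. The miR-31 difference was the largest of those 426, followed by miR-188-5p at 10.8 units and miR-200a* at 10.8 units. The median scaled signal of the 408 miRNAs detected nowhere also moved with tissue, from -7.96 to -4.31 units on TEB arrays, -15.9 and -8.45 on duct arrays and -16.8 to -9.08 on stroma arrays, and its part in these differences was not tested.

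**Figure D3:**
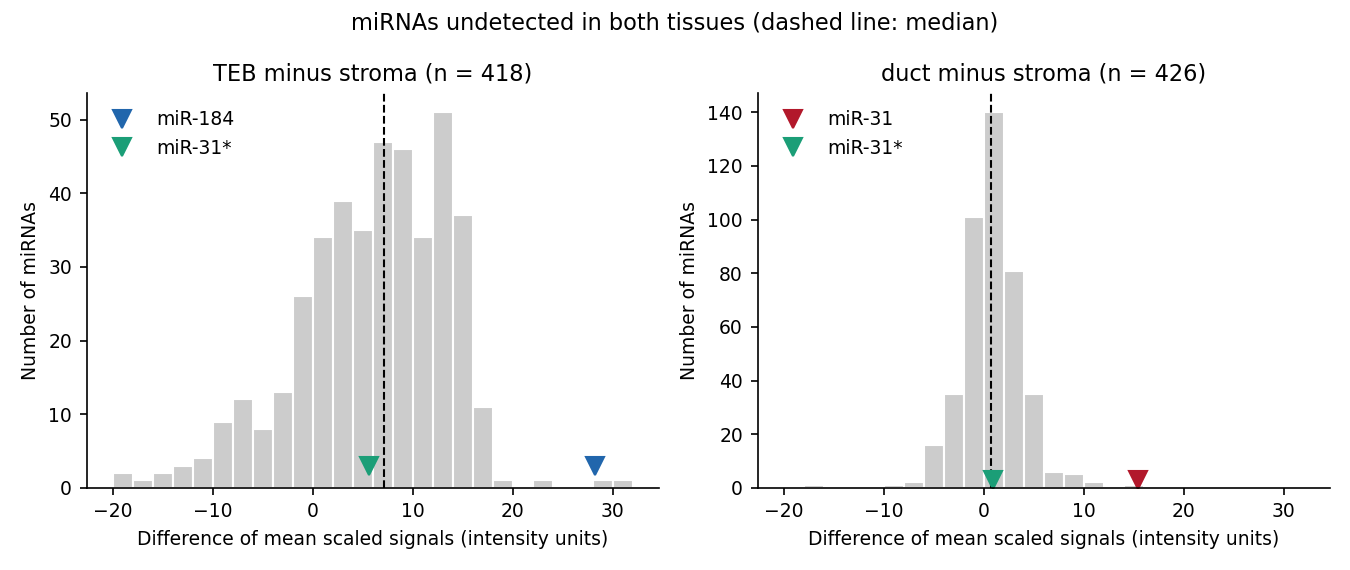
Histograms of the difference in mean scaled signal, in intensity units, for the miRNAs undetected on every array of both tissues: TEBs minus stroma (418 miRNAs, left) and ducts minus stroma (426 miRNAs, right), with the median dashed. The triangles mark miR-184 at 28.2 units on the left, miR-31 at 15.4 units on the right, and miR-31* near the bulk in both.

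miR-31*, from the other arm of the miR-31 hairpin, was detected on no array. Its unscaled signal was 0.437, 1.02 and -3.83 units in TEBs, -9.87 and -4.60 units in ducts, and -9.42, -5.34 and -2.53 units in stroma. The scaled difference of TEBs and ducts was 4.68 units, by exact two-sided permutation p = 0.3. That of TEBs and stroma was 5.63 units, by exact permutation p = 0.2. The smallest p this test can give for so few arrays is 0.1, so it could not reach 0.05 and decides nothing. Both differences lay below the median of the undetected miRNAs, 6.55 units for TEBs minus ducts and 7.10 units for TEBs minus stroma. The scaled miR-31* signals of TEBs overlapped those of ducts, where 49.4% of the 413 miRNAs undetected in both had all TEB arrays above. Without scaling they did not overlap, at -3.83 units on TEB replicate 3 and -4.60 on duct replicate 2, as for 279 of the 413. The 3p strand was thus not detectable at these signal levels in the tissue where the 5p strand was detected.

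Array probes can take up other miRNAs of like sequence, so mature sequences with the longest runs of bases shared with each miRNA are shown: both with 9 bases for miR-31, and 3 of the 4 with 9 or more for miR-184. Shared bases are in capitals.
miR-193a-5p, 9 bases in common with miR-31: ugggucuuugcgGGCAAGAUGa
miR-1941-5p, 9 bases in common with miR-31: agggAGAUGCUGGuacagaggcuu
miR-7646-5p, 10 bases in common with miR-184: acaaGAGAACUGAUcagugcug
miR-146a-5p, 9 bases in common with miR-184: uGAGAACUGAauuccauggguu
miR-146b-5p, 9 bases in common with miR-184: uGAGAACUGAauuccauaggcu
The miR-193a-5p run covers the whole seed of miR-31, starting at base 2 of miR-31 and base 13 of miR-193a-5p. The array names do not say which entry measures miR-193a-5p, and none names miR-1941 or miR-7646, so no value is given for these. The run GAGAACUGA begins at base 7 of miR-184 and at base 2 of miR-146a-5p and miR-146b-5p, read here as the array's miR-146a and miR-146b. miR-146b, an inflammation-linked miRNA known to act on NF-κB signalling, followed miR-184 in part, at 36.0, 41.4 and 47.1 scaled units in TEBs, 89.4 and 103 units in ducts, and 12.0, 10.0 and 46.9 units in stroma. miR-146a, which shares the same run, did not have that order, at 13.9, 14.7 and 14.0 units in TEBs, 6.19 and 16.2 units in ducts, and 16.6, 11.9 and 24.8 units in stroma. The part of shared bases in the miR-184 signal was not tested.

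The tested miRNAs whose log2 signals ran most like miR-31 over the 8 arrays were miR-188-5p (Pearson r = 0.992), miR-132 (r = 0.985), miR-135a* (r = 0.984), miR-455 (r = 0.962) and miR-28 (r = 0.944). These values are descriptions over 8 arrays in 3 tissues that share their scaling and floor. The first 3 of them were, like miR-31, detected on every TEB array and nowhere else. miR-188-5p averaged 25.8 ± 3.29 scaled units in TEBs (SD, n = 3), -0.868 ± 3.58 in ducts (SD, n = 2) and -11.6 ± 5.53 in stroma (SD, n = 3). miR-132, best known from neurons, averaged 16.6 ± 4.07 units in TEBs (SD, n = 3), -0.339 ± 2.66 in ducts (SD, n = 2) and -3.82 ± 3.44 in stroma (SD, n = 3). miR-455 and miR-28 were detected on all arrays and only raised in TEBs, at 84.4 ± 1.82 units against 43.0 ± 2.21 in ducts for miR-455 and 93.6 ± 5.10 against 75.5 ± 2.50 for miR-28 (SD, n = 3 and 2). Without the floor, miR-188-5p, miR-135a* and miR-28 were again among the 5 nearest, joined by miR-503 (r = 0.981) and by miR-214 (r = 0.973), the latter from the list of fibroblast and smooth muscle miRNAs.

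For miR-184 the nearest miRNAs were miR-200a (r = 0.806), miR-652 (r = 0.782), miR-146b (r = 0.739), miR-205 (r = 0.713) and miR-429 (r = 0.712). Without the floor miR-200a rose to r = 0.990, and 4 of the 5 were kept, with miR-200b (r = 0.821) in place of miR-205. miR-200a, a member of the miR-200 family that holds epithelial identity by repressing Zeb1 and Zeb2, averaged 228 ± 25.3 scaled units in ducts (SD, n = 2), 76.7 ± 8.66 in TEBs (SD, n = 3) and -11.3 ± 3.87 in stroma (SD, n = 3). miR-652 varied little, at 138 ± 1.13 units in ducts (SD, n = 2), 131 ± 3.31 in TEBs (SD, n = 3) and 124 ± 1.21 in stroma (SD, n = 3). miR-205, a miRNA of epithelial and basal cells, had the same level in both epithelia, at 40.9 ± 2.57 and 41.1 ± 4.02 units, so that only stroma set its levels apart.

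**Figure D4:**
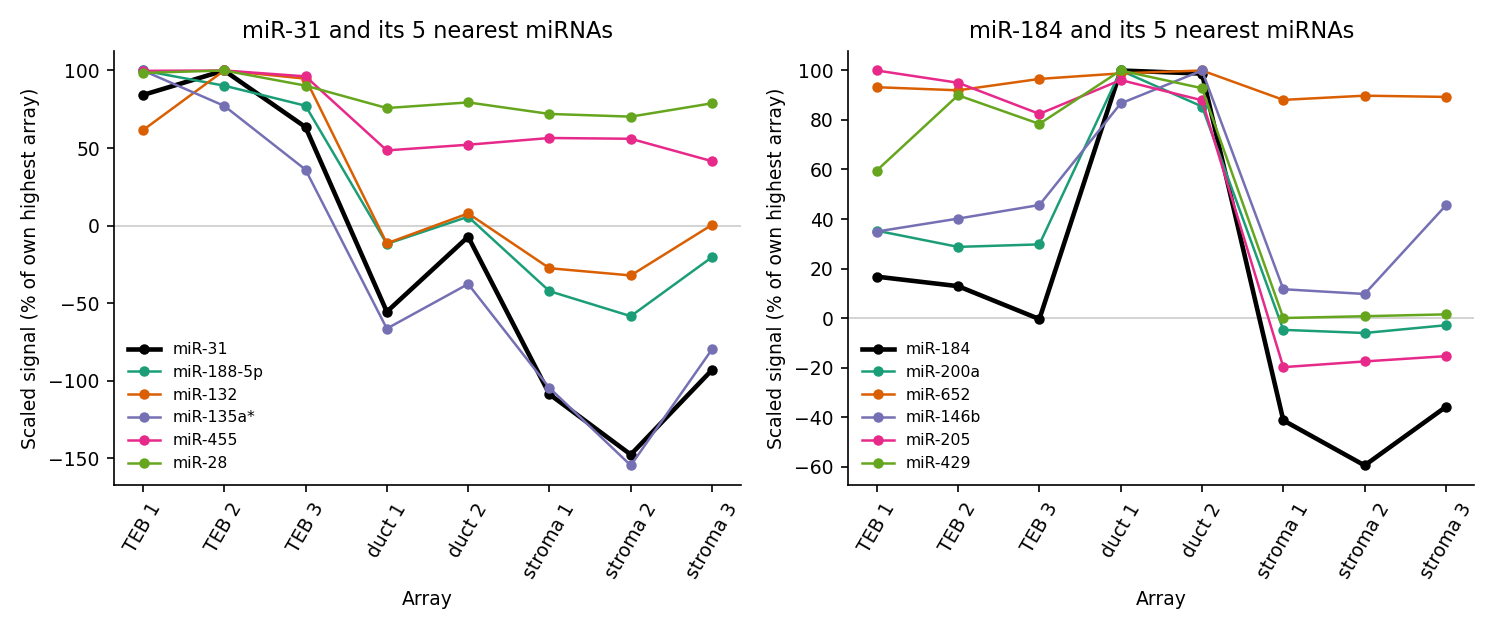
Scaled signal on the 8 arrays, as a percent of each miRNA's own highest array, for miR-31 (left, black) and miR-184 (right, black) and the 5 tested miRNAs with the highest Pearson r to each. miR-188-5p and miR-135a* drop below 0 with miR-31 outside TEBs, except that miR-188-5p stays just above 0 on duct replicate 2, while miR-455 and miR-28 stay well above it; on the right, miR-200a peaks in ducts with miR-184 but is detected in TEBs as well.

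The study set miR-31 beside the miR-17-92 cluster, a set of growth-linked miRNAs cut from a shared transcript, and miR-184 beside the miR-200 and miR-183 families. It chose these lists on the same arrays, so their counts are no independent evidence. All 6 listed miR-17-92 members were on the array and 5 were tested, with miR-17 undetected throughout. Between TEBs and ducts 4 of the 5 were higher in TEBs and 0 in ducts, where 11.4% of all tested miRNAs were higher in TEBs, and the median log2 difference was 0.82 against -0.10 over all tested. miR-18a had a log2 difference of 2.59 ± 0.43 (SE, limma adjusted p = 0.0134), miR-19a of 1.69 ± 0.26 (adjusted p = 0.0124), miR-19b of 0.61 ± 0.12 (adjusted p = 0.0173) and miR-20a of 0.82 ± 0.20 (adjusted p = 0.0274). miR-92a, at 0.34 ± 0.10, did not pass (adjusted p = 0.055). With the replicate number as a block 0 of the 5 passed, their directions unchanged, and with no scaling 2 did. The count also fell to 0 without TEB replicate 2 and to 0 without duct replicate 1, to 2 without duct replicate 2 and to 1 by the per-miRNA test that the methods name. Unlike miR-31, the cluster was also measured outside TEBs, since 5 members were detected on every duct array and 3 on every stroma array. Against stroma all 5 were higher in TEBs, where 20.4% of all tested miRNAs were. The list held no starred strands, such as miR-17*, which the study ranked among its TEB miRNAs. miR-18a*, from the other arm of the miR-18a hairpin, was tested and went the other way. Its log2 difference was -2.40 ± 0.71 for TEBs minus stroma (SE, limma adjusted p = 0.0223). For TEBs minus ducts it was -2.27 ± 0.79 and did not pass (adjusted p = 0.0657).

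Of the 8 listed miR-200 and miR-183 family members, 7 were tested and miR-182 was undetected throughout. All 7 were detected throughout the epithelial arrays and never in stroma, so that they marked both epithelia while miR-184 was flagged in ducts alone. Between TEBs and ducts 1 was higher in ducts, where 13.2% of all tested miRNAs were, and 2 were higher in TEBs. The former was miR-200a, at a log2 difference of -1.57 ± 0.13 for TEBs minus ducts (limma adjusted p = 0.00037), a direction it had under all 17 alternatives while passing in 16 of them. miR-183, a miRNA of sensory and epithelial cells, was higher in TEBs by 0.68 ± 0.13 (adjusted p = 0.0148) and miR-96 by 0.48 ± 0.14 (adjusted p = 0.0466). miR-96 passed in only 2 of its 17 alternatives and miR-183 in 11. The other 4 did not pass, with log2 differences of 0.19 for miR-141, 0.12 for miR-200c, -0.14 for miR-200b and -0.36 for miR-429, and their sign turned with the scaling of the arrays. Against stroma all 7 were higher in TEBs and all 7 in ducts, where 20.4% and 9.58% of all tested miRNAs were (21.6% differed between ducts and stroma in either direction).

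The labelled tissues were checked with markers of their cell types. Of 7 epithelial miRNAs, 6 were detected throughout TEBs and ducts and 0 on any stroma array, with a summed scaled signal of 1956 to 2059 units in TEBs, 2078 to 2316 in ducts and 2.71 to 16.1 in stroma. Of 6 fibroblast and smooth muscle miRNAs, 5 were detected on every array of every tissue, summing to 4066 to 5239 units in TEBs, 4873 to 5044 in ducts and 4001 to 4183 in stroma. Members differed in direction: of the 5 tested, 3 were higher in TEBs than in stroma and 1, miR-143, was lower (limma adjusted p under 0.05). Over all tested miRNAs 20.4% were higher in TEBs than in stroma. In ducts 2 of the 5 were higher than in stroma and 0 lower, where 9.58% of all tested were higher. The 4 adipocyte miRNAs summed to 357 to 410 units in TEBs, 339 to 414 in ducts and 784 to 922 in stroma. The 3 red cell miRNAs ran from 1385 to 1923 units in TEBs, from 2617 to 3320 in ducts and from 2018 to 3622 in stroma. The 2 endothelial miRNAs summed to 1315 to 1650, 1927 to 2061 and 2765 to 3863 units in the same order, and the 5 leukocyte miRNAs to 296 to 450, 361 to 384 and 563 to 679 units. Of these, the endothelial miR-126-5p and 3 leukocyte miRNAs were detected on no array. Signals below 0 counted as 0 in all of these sums. The 4 skeletal muscle miRNAs summed to 17.1 to 89.5 units in TEBs, 56.1 to 179 in ducts and 31.2 to 60.2 in stroma, with 2 of them detected on every duct array and 0 on every array of the other tissues. Markers of other cell types were thus present in every tissue and some moved with it, and their part in the miR-31 and miR-184 signals was not tested. In such tissue pieces, fewer cells of a type and less RNA per cell cannot be told apart. Each array detected 142 to 169 of the 611 miRNAs, and array scaling factors ran from 0.7499 to 1.36.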

How the data were processed

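The deposited files hold, for each of 8 arrays (Agilent single-colour mouse miRNA array), the total gene signal as an intensity, its error and a detection flag. Per the submitters' processing notes they were written by Agilent Feature Extraction 9.5.3, with background subtracted and no scaling between arrays. How the software sets the flag is not given in the sources used here. The authors also deposited log2 values, which look quantile normalized (312 of 672 sorted values are the same on every array), keep the direction of the signal and tie low values at a floor. Their exact processing is not given, and they served as an alternative only.

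Here, 39 probes of non-mouse miRNAs and 22 control entries were left out. Each array was multiplied by a factor bringing its 75th percentile over the 108 miRNAs detected on all 8 arrays to the geometric mean. A floor of 1 scaled unit was applied before taking log2. A linear model with empirical Bayes moderation (limma 3.58.1, R 4.3.3) was fitted to all 8 arrays for 167 miRNAs, those with a detection flag on all replicates of some tissue, with Benjamini-Hochberg adjustment within each of 3 comparisons at a threshold of 0.05. The fit was tested on simulated data.

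Lower limits compare the bright tissue's mean log2 value with the dim tissue's mean of, per array, the higher of the lowest detected signal and the own signal. Where the own signal entered, as for miR-184 on TEB replicates 1 and 2, the ratio is no strict lower limit. Differences below background used scaled signals without a floor. Those of miR-31* were tested by exact two-sided permutation of the arrays. No test is given for miR-31 and miR-184, whose choice used these arrays. The named miRNAs are miR-31, miR-184, the other strand of their hairpins, the 5 tested miRNAs nearest to each by Pearson r on log2 and on scaled values, those sharing the longest run of bases, and the lists of the study. miR-721, miR-200a* and miR-18a* were named after their values were seen. Slide row was read from the array positions in the file names. Alternatives were other scalings, the deposited log2 values, other floors, normexp, other filters, a replicate block, slide row, the methods' t test and leaving out each array. The number of arrays limits the precision. The miRNAs and lists were chosen with earlier results of these data known. Quantitative RT-PCR, cell line and tumour data were not analysed here.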

Additional observations from a re-analysis of the deposited data

How the results depend on the processing

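The limits of miR-31 rest on how the dim tissue is set. With a floor of 1 scaled unit there, the ratio of TEBs was 14.7 over ducts and 14.7 over stroma, and that of miR-184 in ducts 13.2 over TEBs and 50.6 over stroma. With the highest undetected signal, an alternative chosen after seeing the data, the ratios became 0.676 and 0.567 for miR-31, below 1, and 3.003 and 1.95 for miR-184. Quantile normalization moved miR-31 over stroma to 3.65 and miR-184 over TEBs to 5.85. miR-184 over TEBs was 5.28 with scaling to all mouse miRNAs, 9.96 with no scaling and 3.38 with the deposited log2 values, which gave 3.73 over stroma. Leaving out each array moved the miR-31 limits between 1.49 and 4.16 (ducts) and 1.29 and 2.47 (stroma). It moved the miR-184 ratios between 6.98 and 10.3 (TEBs) and 4.43 and 9.14 (stroma). On the log2 scale the reported ratios are 1.42 for miR-31 (TEBs over ducts) and 2.95 for miR-184 (ducts over TEBs). For TEBs minus ducts, normexp gave only 0.41 for miR-31 and -0.72 for miR-184. Adding 16 in place of the floor gave 1.72 and -1.69. Against stroma, normexp gave 0.25 for miR-31 in TEBs and 0.83 for miR-184 in ducts, and adding 16 gave 4.95 and 6.06. The causes were not tested.

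With 1 array left out, the miR-184 difference of TEBs and stroma ran from 24.8 to 32.0 units and the miR-31 difference of ducts and stroma from 10.7 to 18.3 units. On the inverse hyperbolic sine of the scaled signal the miR-184 difference was 5.55, 5.55 with the replicate block and 5.18 with slide row. On the log2 scale this miR-184 difference was 1.93 with the floor, 4.36 with 16 added in place of the floor and only 0.10 with normexp. The normexp correction turned the miR-31 difference to -0.16 on the log2 scale, whereas adding 16 in place of the floor gave 3.23. Of the 5 miRNAs nearest to miR-31, 3 were shared without the floor, with scaling to all mouse miRNAs and with no scaling. For miR-184, 3 were shared with the former scaling and 0 with no scaling.

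Whether replicate numbers pair the arrays could not be settled. Deviations from the tissue means correlated at -0.104 on average over 7 same-numbered pairs (-0.510 to 0.362) and 0.0518 over 14 others. Deviations within a tissue cancel out, so these averages are tied to each other. The replicate block took the miRNAs called between TEBs and ducts from 41 to 16. That count was 75 with no scaling (12 higher in TEBs and 63 in ducts, against 19 and 22), 18 with no detection filter, 12 by the methods' t test (53 unadjusted), and 5 (without TEB replicate 2) to 70 (without TEB replicate 1) with 1 array left out, with 10 without duct replicate 1. It split 24 to 6 with scaling to all mouse miRNAs and 30 to 12 with quantile normalization, and scaling to all mouse miRNAs or none moved the median log2 difference from -0.10 to 0.45 or -0.47. Between TEBs and stroma 108 were called (34 higher in TEBs), and 66 (38 higher) with scaling to all mouse miRNAs, 82 with no scaling (41 each way), and 82 to 114 with 1 array left out. Between ducts and stroma 36 were called, against 19 with scaling to all mouse miRNAs, 56 with no scaling (52 higher in ducts and 4 in stroma), 66 with normexp and 26 to 40 with 1 array left out.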
